A study of Mus musculus with 6 samples.

Results

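The genes described here are the mouse Rab GTPases and the genes of the granule exocytosis machinery, namely the VAMP and syntaxin SNAREs, the SNAP proteins, the syntaxin-binding proteins, the synaptotagmins and synaptotagmin-like proteins, the SCAMPs and the complexins. They were chosen by the start of their gene symbol alone. The rule used no measured value, but earlier results of these data were known. The rule found 92 genes among the 10245 of the deposited table, and all 92 had values in every library. Rab proteins are small GTPases that mark membranes and recruit the motors, tethers and fusion factors that move a vesicle to its target. SNAREs on the vesicle and on the target membrane then zip together and fuse the membranes, a step that Munc18 proteins and tomosyn regulate and that calcium triggers through synaptotagmins. In pancreatic acinar cells this machinery releases digestive enzymes from zymogen granules at the apical membrane, and endocrine cells of the islets use related proteins to release hormone granules.

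Whole pancreas RNA was sequenced from 3 controls of the genotype Ptf1a(CreER/+), aged 4 months, and from 3 Ptf1a cKO mice, Ptf1a(CreER/fl), aged 5 months. All 6 mice had been given tamoxifen by gavage at 0.25 mg/g on 3 days and were sacrificed on day 14, and the mice of the study also carried a R26R EYFP reporter. The CreER allele replaces Ptf1a at its own locus, so the controls already lacked 1 working copy of this acinar transcription factor, and Cre acts in the cells that express Ptf1a, which in the adult pancreas are the acinar cells. Age followed genotype, and the effects of the 2 cannot be told apart. Each group held mice of both sexes. The comparison asks how expression of these genes differs once the remaining functional copy of Ptf1a has been deleted in adult acini.

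Values are normalized read counts on the authors' scale, with the 3 mice of a group always given in the order of their replicate number. They are not whole numbers and give no read counts per gene back. The paper states the uniquely aligned reads of each library, but the counting error of a gene is unknown. The spread between mice is the only measure of precision used here. Of the normalized counts assigned to genes, digestive enzyme genes took 83.8% to 86.3% in control libraries and 39.5% to 66.2% in cKO libraries. The sum over all genes was 17949900 or more in controls and 8981110 or less in cKO. Entries without a gene are left out of both. The authors' scaling follows the bulk of the genes instead, and the median log2 fold change of all genes, cKO against control, was 0.036. If every library is set to the same total, that median moves to 1.49, and if the total is taken without the digestive enzymes, to -0.14. A direction below therefore means higher or lower than the bulk of genes. In whole tissue, fewer cells of a type and less RNA per cell cannot be told apart. Ptf1a itself stood at 566, 601 and 652 normalized counts in controls and at 19.8, 70.1 and 10.2 in cKO. Its log2 fold change was -4.41 (SE 0.49, limma adjusted p = 0.000329), so each library followed its label, with the most Ptf1a left in cKO 2 and the least in cKO 3. An annotated gene on the opposite strand overlaps 40.4% of the Ptf1a exon bases.

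An adjusted p under 0.05 (limma on log2 values, Benjamini-Hochberg over 10245 genes) was reached by 33 of the 92 genes, or 35.9%, where 33.9% of all genes reached it. Of these, 19 were higher in cKO (20.7%, against 17.1% of all genes) and 14 were lower (15.2%, against 16.8%). These shares lie near those of the whole table, and the median log2 fold change of the 92 genes was 0.06. The groups by role below are small, and their counts stand beside the same 17.1% and 16.8% of all genes. A change of 2-fold or more was called for 10 of them (10.9%, against 11% of all genes), of which 7 were higher (7.61%, against 6.35%) and 3 lower (3.26%, against 4.69%). In 46 genes (50%, against 50.8% of all genes) the 3 values of cKO lay apart from the 3 of control, 27 above and 19 below. For any such gene an exact two-sided permutation test over the libraries gives p = 0.1, the smallest it can give.

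The split of 19 higher and 14 lower depended on the scale. With every library at the same total it became 86 higher and 1 lower, where 93.6% of all genes were higher and 1.26% lower. At the same total without digestive enzymes it became 10 higher and 19 lower, where 10.2% and 24.3% of all genes were called. All 14 lower genes lay under the shift of 1.49 and all 19 higher genes above it at the same total, which follows largely from the rescaling, since it moves all genes of a library by the same factor. The count of 33 also fell when a library was left out, to 18 without control 1, 21 without control 3, 20 without cKO 1 and 20 without cKO 3, and the share of all genes called fell with it, from 33.9% to 23.8%, 29.9%, 25.9% and 23.8%. With each library left out in turn, 15 of the 33 genes were called in all 6 fits. The same count was not made for all called genes of the table. Whether the genes described here held their calls more or less often than others was therefore not tested.

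**Figure D1:**
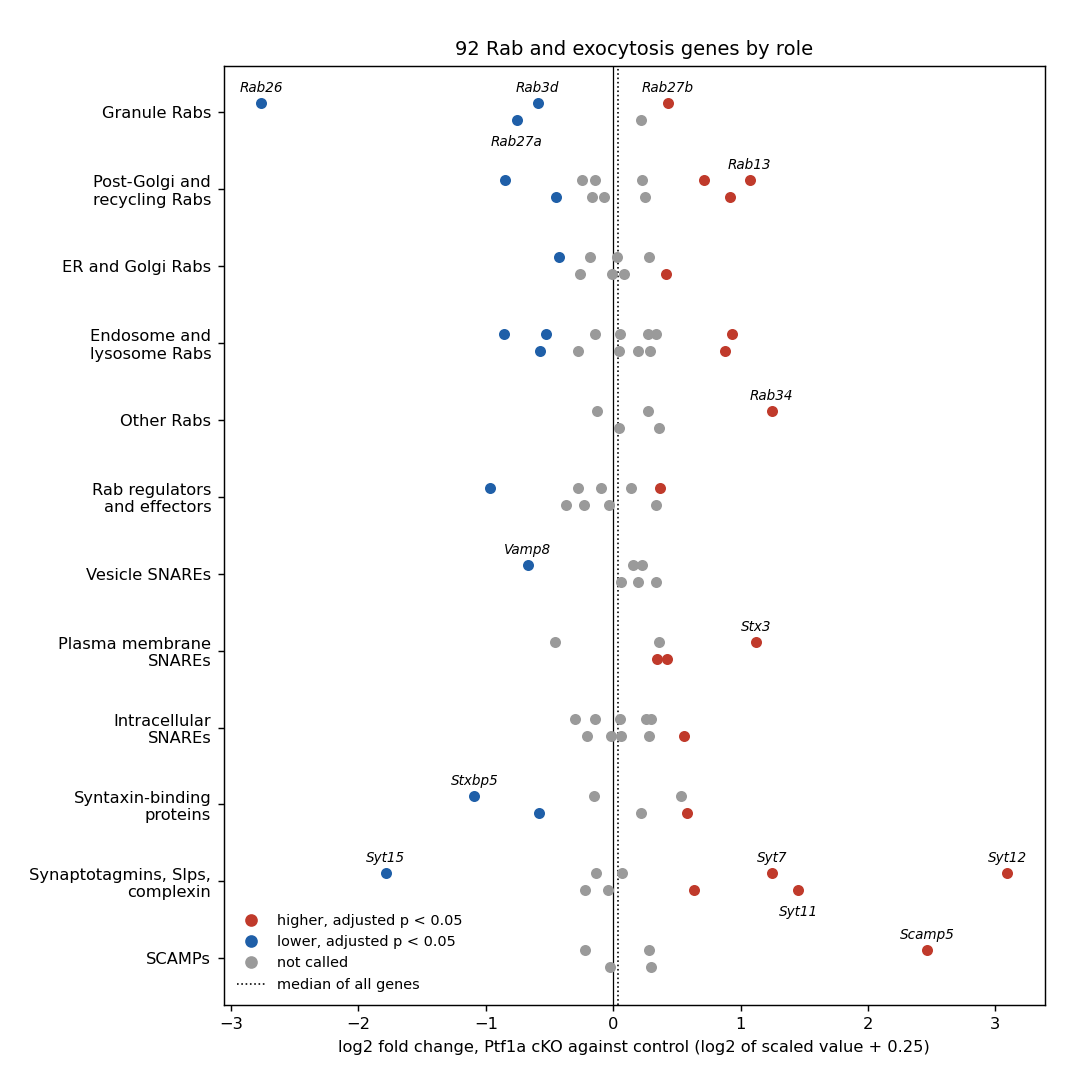
Log2 fold change of each of the 92 genes, Ptf1a cKO against control on the authors' scale, grouped by role on the vertical axis. Each point is a gene, red for the 19 higher and blue for the 14 lower at an adjusted p under 0.05 and gray for the other 59, and the dotted line is the median of all genes at 0.036. Rab26 lies farthest to the left at -2.76 and Syt12 farthest to the right at 3.09.

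Among the Rabs of secretory granules, 5 genes were in the table. Rab26, Rab27a and Rab3d were lower in cKO, Rab27b was higher and Rab3a was not called. Rab26 sits on secretory granules of exocrine cells and acts in their maturation. Its gene lies on chr17:24527241-24534210 (minus strand), by symbol in an annotation of GRCm38, as for all gene positions here, whereas the authors aligned to mm9. Annotated genes on the same and on the opposite strand overlap 10.3% of its exon bases. Rab26 stood at 624, 623 and 540.3 normalized counts in controls and at 99.1, 156 and 38.4 in cKO. The gap between the lowest control and the highest cKO value was wider than the spread within either group. The log2 fold change of -2.76 (SE 0.39, adjusted p = 0.00104) was the deepest fall of the 92 genes, and between -3.19 and -2.22 with each library left out. At the same total Rab26 still fell (-1.30), and it was the only one of the 92 genes called lower on that scale.

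Rab3d, the Rab best known from the zymogen granule membrane, was measured at 3094, 3042 and 3238 normalized counts in controls and at 2248, 2239 and 1757 in cKO. The groups lay apart by more than the spread within either. Its fall was shallow beside that of Rab26, with a log2 fold change of -0.59 (SE 0.14, adjusted p = 0.0106). Divided by exon length, Rab3d was the most abundant of the 89 genes with an annotated length, at 745 ± 24.2 normalized counts per kb in controls (SD, n = 3) and 496 ± 67.0 in cKO. The next in controls was Rab2a, a Rab of the ER to Golgi route, at 425 ± 19.4 per kb, followed by the granule SNARE Vamp8 at 271 ± 7.59, Rab1b at 243 ± 9.33 and Rab26 at 209 ± 16.8. Rab26 had fallen to 34.3 ± 20.6 per kb in cKO, while Rab2a stood at 376 ± 42.5. Rab2a and Rab1b were named after their values had been seen. Rab1 had no annotated length and is missing from this ranking. Its control mean was 1678 normalized counts, against 908 for Rab2a.

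Rab27a and Rab27b are close relatives that dock secretory granules at the plasma membrane through effectors of the Slp and Slac2 families. Rab27a stood at 296, 350.2 and 346 in controls and at 213, 187 and 183 in cKO (log2 fold change -0.76, SE 0.12, adjusted p = 0.00183). Rab27b moved the other way, from 320, 349 and 321 to 482, 383 and 475 (log2 fold change 0.43, SE 0.12, adjusted p = 0.0266). Neither pair of groups overlapped. Rab27a was called with each library left out. Rab27b was called only without cKO 2, and its adjusted p was 0.0892 without control 1, 0.0568 without control 2, 0.0596 without control 3, 0.089 without cKO 1, 0.08 without cKO 3 and 0.147 at the same total without digestive enzymes. Rab3a, the Rab of synaptic and endocrine granules, overlapped between groups (152, 113 and 160 in controls, 151, 155 and 187 in cKO, adjusted p = 0.304). At the same total Rab3d (0.90) and Rab27a (0.72) changed sign, though both stayed below the 1.49 of all genes, and Rab27b (1.91) stayed above it.

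The promoters of Rab3d and Rab27a are shown because both genes fell and because PTF1A, with a partner bHLH protein and RBPJ or RBPJL, binds E-boxes beside an RBPJ core. Windows of 300 bases, 250 before and 50 after the annotated start, were taken from RefSeq on GRCm38.p6. They were searched on both strands for the E-box CANNTG, which includes the variants CAGCTG and CATATG counted separately, and for the RBPJ core TGGGAA. E-boxes are in capitals. Rab3d has a window on chr9:21918134-21918433 (minus strand). Rab27a has a pair of windows on the plus strand, the first on chr9:73044560-73044859 and the second on chr9:73063898-73064197.
Rab3d: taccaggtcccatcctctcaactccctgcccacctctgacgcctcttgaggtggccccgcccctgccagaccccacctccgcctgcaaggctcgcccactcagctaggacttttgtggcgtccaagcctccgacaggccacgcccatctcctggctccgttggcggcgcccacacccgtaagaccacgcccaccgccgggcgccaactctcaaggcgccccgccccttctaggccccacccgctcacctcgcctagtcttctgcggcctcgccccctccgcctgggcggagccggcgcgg
Rab27a, first window: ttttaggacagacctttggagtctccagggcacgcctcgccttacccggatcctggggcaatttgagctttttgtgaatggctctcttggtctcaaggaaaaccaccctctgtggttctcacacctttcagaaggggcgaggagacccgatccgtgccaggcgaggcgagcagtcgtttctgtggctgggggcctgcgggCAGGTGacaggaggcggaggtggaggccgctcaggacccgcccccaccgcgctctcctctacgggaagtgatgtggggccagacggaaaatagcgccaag
Rab27a, second window: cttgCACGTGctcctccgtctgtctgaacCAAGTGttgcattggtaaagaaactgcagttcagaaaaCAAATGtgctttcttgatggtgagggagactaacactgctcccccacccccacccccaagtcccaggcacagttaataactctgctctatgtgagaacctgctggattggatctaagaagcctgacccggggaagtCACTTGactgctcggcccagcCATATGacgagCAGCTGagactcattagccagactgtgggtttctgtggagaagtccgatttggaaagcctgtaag
The Rab3d window held 0 E-boxes and the first Rab27a window 1, while the second Rab27a window held 6, among them 1 CAGCTG and 1 CATATG. None of these 3 windows held the RBPJ core. An E-box is common, since 72.3% of the 32851 windows in the reference hold CANNTG, 16.3% CAGCTG, 3.91% CATATG, 25.6% TGGGAA, and 19.0% both CANNTG and TGGGAA. The reference held windows for 75 of the 92 genes, 10 of the 14 lower and 15 of the 19 higher, and none for Rab26. Counted over windows as for the whole reference, CANNTG was in 58 of the 96 windows of the Rab and exocytosis genes. It was in 6 of 11 windows of the lower genes and in 14 of 20 of the higher. The RBPJ core was in 21 of 96, 3 of 11 and 3 of 20 windows. These are counts of letters in a window, and binding was not measured.

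**Figure D2:**
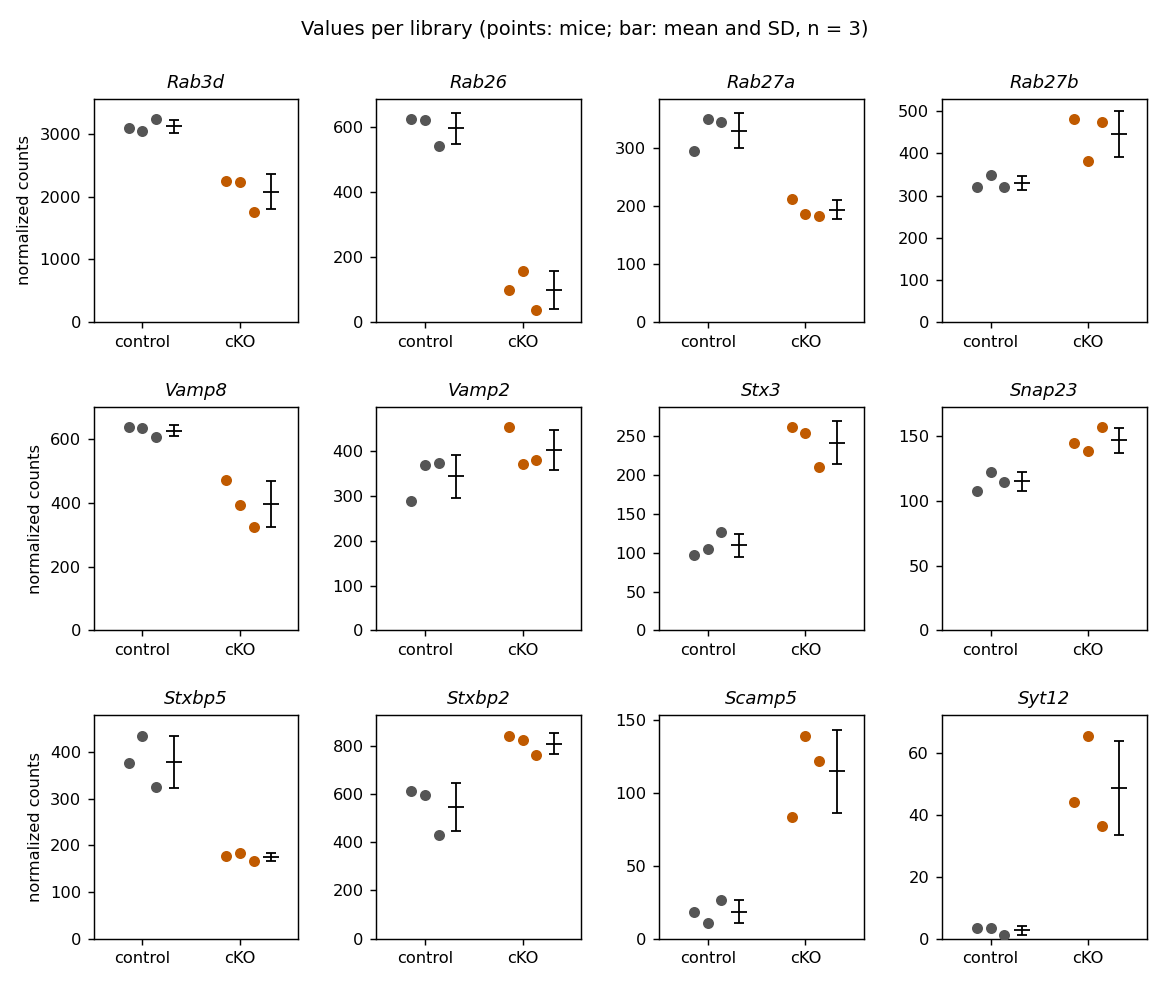
Normalized counts (vertical axes, starting at 0) of 12 genes in each mouse, with control in gray and Ptf1a cKO in orange, and the mean with its SD (n = 3) as a bar beside the points. All groups lie apart for 11 of them and overlap for Vamp2, and Rab26, Stxbp5, Scamp5 and Syt12 show the widest gaps.

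Of the 6 vesicle SNAREs in the table, Vamp8 fell, and the other 5 were not called. Vamp8 (chr6:72385223-72390703) is the main VAMP of regulated secretion from zymogen granules. It stood at 638, 637 and 607 in controls and at 472, 393 and 325 in cKO, with no overlap (log2 fold change -0.67, SE 0.14, adjusted p = 0.00702), and it was called with each library left out. Vamp2, which also resides on granules, had 289, 369 and 374 in controls and 453, 371 and 381 in cKO, so the groups overlapped (adjusted p = 0.237). Vamp1, Vamp3, Vamp4 and Vamp7 had log2 fold changes from 0.06 to 0.34, and no call was made for them. At the same total Vamp8 changed sign (0.82) and stayed below the shift of all genes.

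Of the 5 plasma membrane SNAREs, 3 were higher and 0 lower on the authors' scale, with a median log2 fold change of 0.36, where the vesicle SNAREs had 0.17. Stx3 (chr19:11775118-11819403), a syntaxin of apical membranes that is also found on zymogen granules, had 97.4, 105 and 126 normalized counts in controls and 262, 254 and 209.9 in cKO. The lowest cKO value was well above the highest control, and the log2 fold change of 1.12 (SE 0.14, adjusted p = 0.000572) was kept between 1.04 and 1.22 with each library left out. Stx4a, the syntaxin of the basolateral membrane, rose from 132, 149.9 and 122 to 190.4, 188 and 167 (log2 fold change 0.42, adjusted p = 0.027). Snap23, the SNAP-25 relative of cells other than neurons, had 108, 122 and 115 in controls and 145, 138 and 157 in cKO (log2 fold change 0.34, adjusted p = 0.0481). These calls were weak. Stx4a was lost without control 1 (adjusted p = 0.0795), control 3 (0.0644), cKO 1 (0.0851) or cKO 2 (0.062), Snap23 whichever of the 6 libraries was left out (adjusted p from 0.0593 to 0.154), and both at the same total without digestive enzymes (0.205 and 0.357). Stx2, which serves the apical membrane of acinar cells, had 43.9, 34.0 and 44.6 in controls against 56.8, 47.8 and 54.2 in cKO and missed the threshold (adjusted p = 0.157). Stx1a, the neuronal and endocrine syntaxin, was low in both groups, with a negative log2 fold change (-0.46), and overlapped (adjusted p = 0.27).

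Of 10 SNAREs of inner membranes, Stx17 rose and 0 fell, and the log2 fold changes of the other 9 lay between -0.30 and 0.29. Stx17, the syntaxin of autophagosomes, had 131, 130.3 and 108 in controls and 186, 159 and 204 in cKO (log2 fold change 0.56, SE 0.14, adjusted p = 0.0136). The groups lay apart, and the call was lost without cKO 3 (adjusted p = 0.0524) and at the same total without digestive enzymes (0.0587).

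Proteins that bind syntaxins were divided. Stxbp5 (chr10:9755547-9901079), or tomosyn, holds syntaxin and SNAP proteins in complexes that cannot fuse with a vesicle. It fell from 378, 436 and 325 normalized counts to 177, 183 and 166, and the 3 cKO values were close together (log2 fold change -1.09, SE 0.13, adjusted p = 0.000461). Stxbp6, or amisyn, which has a related SNARE motif, fell as well (192 ± 39.0 to 126 ± 16.7, SD, n = 3, adjusted p = 0.0257) and was called in 3 of the 6 fits with a library left out. It was named after its values had been seen. Stxbp2, or Munc18b, the partner of Stx3 in epithelial and blood cells, rose from 613, 596 and 430.4 to 844, 824 and 761 (log2 fold change 0.58, SE 0.15, adjusted p = 0.0165). Its lowest value was control 3. The call was lost without cKO 1 (adjusted p = 0.0523) and at the same total without digestive enzymes (0.085). Stxbp3a, or Munc18c, the partner of Stx4, overlapped between groups (104, 95.5 and 93.6 against 120.1, 121 and 103, adjusted p = 0.192).

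Synaptotagmins held the largest rise and the second largest fall of the 92 genes. Syt12 (chr19:4445908-4477447), a synaptotagmin that does not bind calcium through its C2 domains, was close to absent in controls, at 3.47, 3.49 and 1.03 normalized counts, and reached 44.1, 65.7 and 36.5 in cKO. Its log2 fold change of 3.09 (SE 0.44, adjusted p = 0.00109) understates the change, since the pseudocount of 3.41 normalized counts exceeds the control mean of 2.66. It was called with each library left out, with a log2 fold change of 2.87 to 3.27. An annotated gene on the opposite strand covers 17.2% of the Syt12 exon bases, and whether the reads were counted by strand is not given in the sources used here.

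Syt7, a high-affinity calcium sensor of granule and lysosome exocytosis, rose from 54.6, 66.2 and 68.4 to 152, 115 and 207 (log2 fold change 1.25, SE 0.21, adjusted p = 0.00212) and was called with each library left out. Syt11, which lacks calcium binding and acts in vesicle recycling, rose from 9.40, 11.6 and 16.7 to 31.5, 29.0 and 67.1 (log2 fold change 1.45, SE 0.38, adjusted p = 0.0171). Cplx2, a complexin that clamps and promotes SNARE fusion, had 69.6, 71.1 and 82.4 in controls and 124, 82.6 and 157 in cKO (log2 fold change 0.64, adjusted p = 0.0455). In Cplx2 the highest control and the lowest cKO value nearly met. Cplx2 was called only without cKO 2, and its adjusted p was 0.125 without control 1, 0.118 without control 2, 0.0679 without control 3, 0.116 without cKO 1, 0.15 without cKO 3 and 0.094 at the same total without digestive enzymes. Syt11 was lost without control 1 (0.0585), control 2 (0.0508) or cKO 3 (0.0514).

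Syt15, a synaptotagmin without calcium binding, fell from 91.4, 74.8 and 108 to 7.80, 54.5 and 27.8. The cKO values spread widely, and all lay below the controls (log2 fold change -1.78, SE 0.49, adjusted p = 0.0222). The call was lost without control 1 (0.0692) or control 3 (0.0788). Among the synaptotagmin-like proteins, which link Rab27 to the plasma membrane, Sytl1 (566, 506 and 395 against 467, 462 and 328, adjusted p = 0.353) and Sytl4 (89.2, 86.3 and 105 against 108, 55.8 and 98.3, adjusted p = 0.668) overlapped between groups. Sytl1 was the most abundant of the synaptotagmin group per kb, with 194 ± 34.3 in controls.

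Of the 5 SCAMPs, tetraspan proteins of recycling and secretory vesicles, Scamp5 alone was called. Scamp5, the SCAMP enriched in brain, had 18.5, 10.8 and 26.3 normalized counts in controls and 83.4, 139 and 122 in cKO. The groups lay well apart, and the log2 fold change was 2.46 (SE 0.30, adjusted p = 0.000461), between 2.18 and 2.72 with each library left out. Per kb of exon it went from 4.99 ± 2.09 to 31.0 ± 7.70 (SD, n = 3). Scamp1 was 344, 389 and 469.8 in controls and 550.1, 441 and 479 in cKO (adjusted p = 0.144). The promoter of Scamp5, a gene that rose, is shown as well, on chr9:57468011-57468310 (GRCm38.p6, minus strand), with its E-box in capitals. It held 1 E-box and 0 RBPJ cores, the same counts as the first window of Rab27a, which fell.
Scamp5: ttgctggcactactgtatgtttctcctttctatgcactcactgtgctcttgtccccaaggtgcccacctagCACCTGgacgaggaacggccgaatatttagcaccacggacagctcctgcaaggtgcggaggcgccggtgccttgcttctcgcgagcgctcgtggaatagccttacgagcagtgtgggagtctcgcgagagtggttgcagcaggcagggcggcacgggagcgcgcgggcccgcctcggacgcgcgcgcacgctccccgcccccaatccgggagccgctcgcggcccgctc

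Rabs of the routes from the Golgi to the plasma membrane and of recycling endosomes gave 3 higher and 2 lower genes of 11. The paralogs Rab4a and Rab4b, which return cargo from early endosomes, moved in opposite directions. Rab4a fell from 129.6, 133 and 103 to 72.2, 60.7 and 64.3 (log2 fold change -0.85, SE 0.15, adjusted p = 0.00259). Rab4b rose from 70.9, 98.6 and 83.1 to 171, 137 and 177 (log2 fold change 0.92, SE 0.16, adjusted p = 0.0026). Both were called with each library left out. Another annotated gene on the same strand shares exons with Rab4b, and 65.0% of its exon bases are overlapped, so the value of Rab4b is uncertain. Rab13, a Rab of tight junctions, rose from 14.0, 18.5 and 12.6 to 35.1, 36.8 and 33.2 (log2 fold change 1.07, SE 0.28, adjusted p = 0.0166) and was lost without control 1 (0.0515) or cKO 1 (0.056). Rab8b rose (46.0 ± 4.21 to 77.8 ± 9.69, SD, n = 3, log2 fold change 0.71, adjusted p = 0.00853) and Rab10 fell (609 ± 37.1 to 444 ± 19.9, log2 fold change -0.45, adjusted p = 0.0117). Both of these were named after their values had been seen, act in delivery to the plasma membrane, and were called with each library left out. Rab8a and Rab11a, which carry apical cargo, were 342 ± 54.3 and 351 ± 16.1 in controls and 303 ± 17.9 and 319 ± 22.0 in cKO, and neither was called (adjusted p = 0.38 and 0.345).

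Rabs of the ER and Golgi gave 1 higher and 1 lower gene of 8. Rab1, which acts between the ER and the Golgi, was 1487, 1626 and 1921 in controls and 1306, 1281 and 1138 in cKO (log2 fold change -0.43, adjusted p = 0.0349). Rab43, a Golgi Rab, was 506, 443 and 501 in controls and 624, 766 and 556 in cKO (log2 fold change 0.41, adjusted p = 0.047), but 75.4% of its exon bases are shared with another annotated gene on the same strand, so its value is uncertain. The groups lay apart in both, and both calls were weak. Rab1 was lost without control 2 (0.0903), control 3 (0.0843), cKO 1 (0.0614) or cKO 3 (0.0897), and Rab43 when any library other than cKO 3 was left out (adjusted p from 0.0731 to 0.157), with the median of ratios (0.0655) and at the same total without digestive enzymes (0.323).

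Rabs of endosomes and lysosomes gave 2 higher and 3 lower genes of 13. Rab31 and Rab32, which act between the trans-Golgi and endosomes and in lysosome-related organelles, rose from 22.6 ± 4.40 to 44.2 ± 4.88 (log2 fold change 0.88, adjusted p = 0.0178) and from 15.4 ± 2.23 to 32.5 ± 5.46 (log2 fold change 0.93, adjusted p = 0.0335). Rab20 fell from 43.7, 26.01 and 42.5 to 21.9, 16.5 and 17.7 (log2 fold change -0.86, adjusted p = 0.0444), and 25.6% of its exon bases are overlapped by a gene on the opposite strand. Rab7l1, a Rab of the Golgi and lysosomes, fell from 86.8, 81.6 and 88.0 to 56.8, 69.1 and 45.0 (log2 fold change -0.58, adjusted p = 0.0289). The third lower gene, Rab39b, fell by 0.53 on the log2 scale and was named after its values had been seen. None of these 5 was called in all 6 fits with a library left out. Rab31 was lost without control 1 (0.059) or cKO 3 (0.0547), and Rab32 whichever library was left out (0.0525 to 0.0997) and at the same total without digestive enzymes (0.0687). Rab20 was kept only without control 2 (0.0619 to 0.172 in the other fits) and Rab7l1 only without cKO 2 (0.0668 to 0.0914 in the others). Rab39b was kept in 1 of the 6 fits.

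Rab34, a Rab of the Golgi, macropinosomes and the forming cilium, had the smallest adjusted p of the higher Rabs. It had 43.9, 38.5 and 36.9 normalized counts in controls and 115, 92.8 and 90.0 in cKO, well apart, with a log2 fold change of 1.24 (SE 0.16, adjusted p = 0.000597) that stayed between 1.14 and 1.31 with each library left out. The other 4 Rabs of its group, Rab12, Rab23, Rab28 and Rab40c, were not called. Among 9 regulators and effectors named for a Rab, Rab11fip4, which binds Rab11 on recycling endosomes, fell from 75.2, 79.0 and 65.0 to 28.9, 38.7 and 40.0 (log2 fold change -0.97, SE 0.18, adjusted p = 0.00385) and was called in every such fit. Rab11fip1, of the same family, rose by a smaller amount (log2 fold change 0.36, adjusted p = 0.0396) and was kept only without control 3 (0.0515 to 0.129 in the other fits), and its adjusted p was 0.359 at the same total without digestive enzymes. The GTPase-activating complex of Rab3, Rab3gap1 and Rab3gap2, was not called (adjusted p = 0.558 and 0.497).

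Other genes of the pathway were taken from lists of known components. Of 7 effectors that tie granule Rabs to myosin and the membrane, 3 were higher and 3 lower on the authors' scale. The Rab27 effectors Exph5 (log2 fold change 1.33, adjusted p = 0.000909) and Mlph (0.72, 0.00388) and the motor Myo5a (0.93, 0.0359) were higher. The motor Myo5c (-0.995, 0.00762), which serves exocrine granules, the Rab27 effector Myrip (-0.54, 0.0181) and Rph3al (-0.82, 0.0178), an effector of Rab3 and Rab27, were lower. Myo5c stood at 1323, 1335 and 1037 normalized counts in controls and at 512, 881 and 509 in cKO. Of 9 exocyst subunits, which tether vesicles at the plasma membrane, 3 were higher and 0 lower. These were Exoc1 (0.43, adjusted p = 0.0212), Exoc4 (0.48, 0.0444) and Exoc6b (0.46, 0.0263). In Exoc4 the highest control value (144.5) and the lowest cKO value (145.2) nearly met. Of 17 genes that load, unload or recycle Rabs, 3 were higher, among them Chm (0.54) and Dennd4c (0.55), and Dennd4a (-1.07, adjusted p = 0.00101) was lower. Of 6 genes that prime or take apart SNARE complexes, Napa, the alpha-SNAP adaptor of NSF, was lower (868 ± 4.95 to 544 ± 68.6, adjusted p = 0.00319) and Nsf itself was not called. Of 12 ER to Golgi SNAREs, Bet1 was lower (-0.72, adjusted p = 0.0077), and the other 11 were not called.

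Ratios of related genes within a library do not depend on how the libraries are scaled. The 5 ratios given here, of normalized counts per kb of exon, were chosen after the values had been seen and are descriptions without a test. Rab26 was 0.297, 0.301 and 0.246 of Rab3d in controls and 0.0648, 0.103 and 0.0321 of it in cKO, so Rab26 lost ground to Rab3d in each cKO mouse. Rab27b was 0.393, 0.362 and 0.337 of Rab27a in controls and 0.821, 0.746 and 0.941 of it in cKO. Per kb it lay below Rab27a in all 6 mice, an order that depends on the annotated exon length. Without division by exon length, Rab27b was 1.08, 0.997 and 0.928 of Rab27a in controls and 2.26, 2.05 and 2.59 of it in cKO. Vamp2 was 0.275, 0.351 and 0.374 of Vamp8 in controls and 0.581, 0.572 and 0.71 of it in cKO, also below it throughout per kb. Without division by exon length, Vamp2 was 0.958, 0.943 and 1.17 of Vamp8 in cKO. Rab3d was 10.8, 14.2 and 10.7 times Rab3a in controls and 7.89, 7.66 and 4.99 times in cKO. Rab4b went from 0.488, 0.663 and 0.722 of Rab4a to 2.11, 2.01 and 2.46, with the limit on Rab4b given above. The groups lay apart in all 5 ratios, and cKO 3 was the most extreme cKO library in each.

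**Figure D3:**
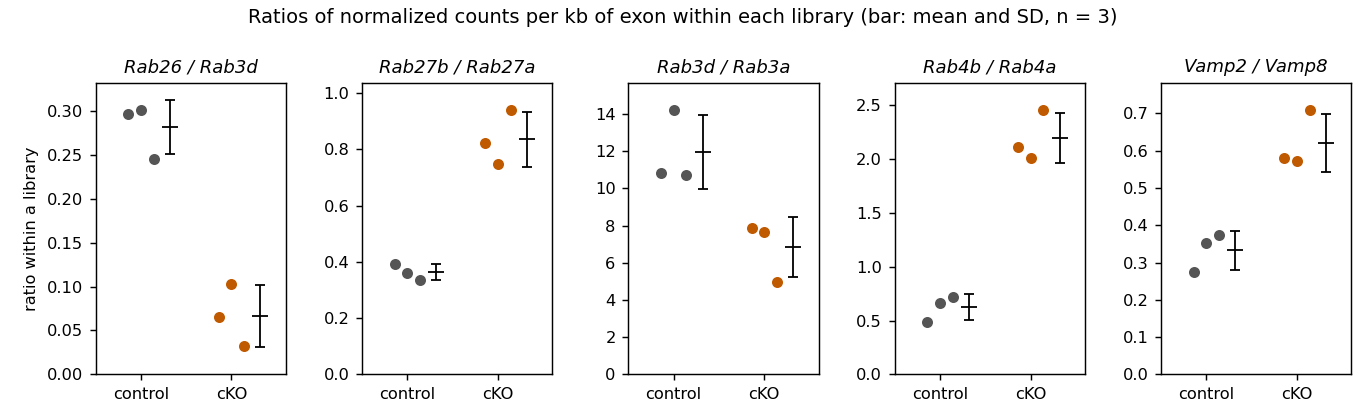
Ratio of normalized counts per kb of exon of 5 pairs of related genes in each mouse (vertical axes, starting at 0), control in gray and Ptf1a cKO in orange, with the mean and SD (n = 3) as a bar. The 3 cKO points lie below the controls for Rab26 to Rab3d and Rab3d to Rab3a and above them for the other ratios.

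The cKO libraries differed among themselves, and cKO 3, which had the least Ptf1a, most often held the extreme value, as it did over the whole table. In cKO 3, with 10.2 normalized counts of Ptf1a, the lowest cKO value was found for 9 of the 14 lower genes and the highest for 9 of the 19 higher genes (64.3% and 47.4%, against 64.2% and 52% of all genes called lower and higher). In cKO 2, with 70.1, the numbers were 3 and 5 (21.4% and 26.3%, against 9.4% and 18.8%), and in cKO 1, with 19.8, they were 2 and 5 (14.3% and 26.3%, against 26.4% and 29.2%). Rab26 followed the order of Ptf1a, with 156 in cKO 2, 99.1 in cKO 1 and 38.4 in cKO 3. The other lower granule genes Rab3d, Rab27a and Vamp8 did not, and had their highest cKO value in cKO 1. The 3 mice allow no test of such an order.

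Markers of several cell types moved with the groups. Of 34 digestive enzyme and acinar product genes, 24 were lower in cKO and 1 higher. Of 10 leukocyte markers 8 were higher, with a sum of 499.7 to 837 normalized counts in controls and 1309 to 3090.0 in cKO. Of 9 fibroblast markers 8 were higher, with a sum of 3029 to 3446 in controls and 5948 to 10522 in cKO, and of 7 duct markers 4 were higher, with a sum of 3977 to 4901 and 25846 to 110284, most of it Spp1. Of 6 endothelial markers 1 was higher, with sums of 653 to 850.0 in controls and 689.99 to 875 in cKO that overlap. Their part in the changes of the Rab and SNARE genes was not tested.

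Endocrine markers did not follow genotype. By limma 0 of the 12 passed the threshold and 0 had an unadjusted p under 0.05. Their sum varied between mice of both groups, at 12520, 11884 and 43850 normalized counts in controls and 28172, 6060 and 34601 in cKO. The order of this sum, with control 3 highest among controls and cKO 2 lowest among cKO, was also that of 22 of the 92 genes (23.9%, against 14.2% of all genes). This order was looked for after the values had been seen, and no test was made. Syt13, chosen for that reason, tracked it most visibly, at 53.9, 69.0 and 157 in controls and 132, 25.6 and 192 in cKO, while its log2 fold change between groups was 0.07 (adjusted p = 0.942). The called genes in this order were Syt7, Syt11, Cplx2 and Rab10. In Syt7 the cKO library with the fewest endocrine counts, cKO 2, stood at 115, beside 68.4 in control 3, the highest control. In Cplx2 cKO 2 stood at 82.6, beside 82.4 in control 3. The part of endocrine cells in the changes of these genes was not tested. Rab26 did not share the order. Its control 3 value was the lowest of the controls, and its cKO 2 value the highest of cKO.

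**Figure D4:**
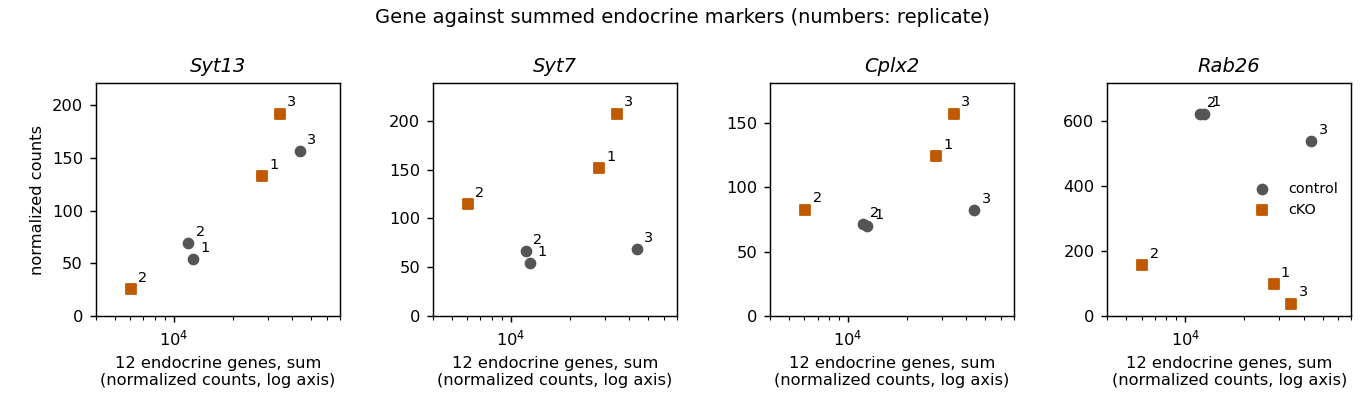
Normalized counts of Syt13, Syt7, Cplx2 and Rab26 (vertical axes, starting at 0) against the summed normalized counts of 12 endocrine markers (horizontal log axes), 1 point per mouse labelled by replicate number, controls as gray circles and Ptf1a cKO as orange squares. Syt13 is highest in the libraries with a high endocrine sum in both groups, every Syt7 value of cKO lies above every control, and every Rab26 value of cKO lies below every control.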

How the data were processed

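Whole pancreas RNA of 3 control and 3 Ptf1a cKO mice was sequenced. The values are a signal deposited by the authors, namely normalized read counts per gene symbol, scaled with edgeR's TMM method. The submitters' processing notes name TopHat2 2.0.4, Bowtie 0.12.7.0, SAMtools 0.1.18.0, HTSeq 0.6.0 and the build mm9. The 3 entries without a gene, 75.7% to 82.6% of a library's values, were left out. Whole reads could not be recovered, so count models listed as alternatives were not run, and the precision is that of 3 mice per group.

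Values were divided by 13.6393, and log2(value + 0.25) was compared by limma 3.58.1 (R 4.3.3) with a mean-variance trend, two-sided and adjusted over 10245 genes. The pseudocount understates changes of low genes. Samples were grouped by the genotype labels. Genes named in the text were a list of zymogen granule components, the 8 largest rises and falls among called genes, and the smallest adjusted p per role and direction. The members and lists were chosen with earlier results of these data known. Positions and exon lengths come from GENCODE M21 (89 of 92 genes), and promoters from RefSeq. Some genes that the rule names are not reported here. The model was tested on simulated data. Alternatives were other pseudocounts, filters, scalings, variance models, sex, a replicate block, a stricter threshold and leaving out libraries.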

Additional observations from a re-analysis of the deposited data

How the results depend on the processing

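The counts of genes that passed the threshold (33, with 19 higher and 14 lower) were within 1.5 times these values with pseudocounts of 0.05 and 1, a minimum mean of 4, scaling to the same 75th percentile or by the median of ratios, limma with no trend or a robust fit, and sex as a covariate. The minimum mean kept 79 of the 92 genes and left out low ones such as Syt12. Of those kept, 25 passed (31.6%, against 37.1% of all genes kept). At an adjusted p under 0.01, 13 genes passed (14.1%, against 17.5% of all genes), 7 higher and 6 lower. With every library at the same total, 87 passed (94.6%, against 94.9%), 86 higher and 1 lower, and the median log2 fold change of the 92 genes was 1.53 in place of 0.06. At the same total without digestive enzymes 10 were higher, and the median was -0.12. Leaving out each library in turn gave 18 to 29 genes, 9 to 16 higher and 8 to 13 lower, with a median between 0.0058 and 0.103.

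The same total turned the sign of 12 of the 14 lower genes, namely Rab1 (1.07), Rab10 (1.04), Rab11fip4 (0.44), Rab20 (0.47), Rab27a (0.72), Rab39b (0.88), Rab3d (0.90), Rab4a (0.60), Rab7l1 (0.85), Stxbp5 (0.39), Stxbp6 (0.88) and Vamp8 (0.82), and of Rab11a (1.34), Rab8a (1.32), Sytl1 (1.26) and Sytl4 (1.31), which were not called on the authors' scale. All these values lie below the shift of 1.49 that this scaling gives all genes. Leaving out a library gave Sytl4 a range of -0.31 to 0.14, with a positive sign without cKO 2, and it was called in none of these fits.

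With the replicate number as a block, 30 of the 92 genes passed (3525 of all genes against 3475), and Rab1, Rab43 and Snap23 were lost. The numbers were not shown to pair the mice, since the deviations of libraries with the same number correlated only at 0.039, 0.13 and 0.14. Of the controls, cKO 2 and cKO 3 correlated best with the one of the same number, and cKO 1 with control 2 (0.083). Read counts per gene could not be recovered, so no limit from counting error was given for low genes such as Syt12 in controls.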
